A study of Mus musculus with 4 samples.

Results

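The EGF receptor (EGFR) family, its ligands and a cytoplasmic inhibitor of the receptors were followed in laser-captured crypts of the mouse intestine. All probe sets of the expression array that carry exactly 1 gene symbol in the platform annotation, and whose symbol was 1 of 10 listed genes, were taken as members. This gave 21 probe sets for 9 genes, out of 45037 probe sets in all. The receptors were Egfr, Erbb2 and Erbb3, the ligands Egf, Ereg, Hbegf, Btc and Tgfa, and the inhibitor Errfi1. The tenth listed gene, the ligand Areg, was matched by no such probe set and was not analysed here. A filter on mean signal kept 13 of the 21 probe sets, at least 1 for each of the 9 genes, and 22519 probe sets of the whole array. A member that passed may have done so through the group in which it is high.

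The study compared crypts of control mice with crypts of mice lacking beta-catenin, the co-activator of Wnt target genes, 2 days after deletion was induced by tamoxifen. Each group held 2 arrays of RNA amplified in 2 rounds. The sources used here do not give strain, age, sex, the driver of the tamoxifen-inducible deletion, the deleted exons, the intestinal segment or the treatment of the controls. They also do not say whether 2 samples of a group are 2 mice, so that the p-values hold for the spread of these arrays, and that spread may be technical.

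EGF family ligands are made as membrane-anchored precursors that surface proteases release. A released ligand joins receptors into pairs, and the paired receptors start the Ras, MAP kinase and PI3 kinase cascades. ERBB2 binds no known ligand and ERBB3 has little kinase activity, so each depends on a partner. ERRFI1 (also called MIG6) is induced by the pathway and binds the kinase domain of the active receptors. In the small intestine EGF receptor signalling drives proliferation of the crypt base, where Paneth cells are known to make EGF and TGF-alpha.

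Promoters of Tgfa and Errfi1 are shown because the main probe sets of these genes had the largest positive differences among the kept members, and that of Egfr because its kept probe sets lay on the other side. The sequences are RefSeq's, of build GRCm38.p6, and run from 250 bases before to 50 bases after a start site. The RefSeq table held promoters for 7 of the 10 listed genes. Capitals mark the matches of 6 short motifs, which were searched on both strands except the last: the TCF/LEF cores CTTTGA and CTTTGT, which share their first 5 letters, the AP-1 site TGANTCA, the cyclic AMP response element TGACGTCA, the GC box GGGCGG and the TATA box core TATAAA, searched on the gene's strand alone. TCF/LEF factors are the DNA-binding partners of beta-catenin.
Tgfa, chr6:86194972-86195271 (forward strand): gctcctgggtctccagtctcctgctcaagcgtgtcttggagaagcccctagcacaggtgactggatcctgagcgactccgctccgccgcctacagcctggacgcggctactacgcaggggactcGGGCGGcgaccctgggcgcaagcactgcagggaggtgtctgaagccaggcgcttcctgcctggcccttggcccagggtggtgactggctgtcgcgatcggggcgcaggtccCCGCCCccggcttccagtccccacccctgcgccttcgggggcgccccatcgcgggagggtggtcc
Egfr, chr11:16751953-16752252 (forward strand): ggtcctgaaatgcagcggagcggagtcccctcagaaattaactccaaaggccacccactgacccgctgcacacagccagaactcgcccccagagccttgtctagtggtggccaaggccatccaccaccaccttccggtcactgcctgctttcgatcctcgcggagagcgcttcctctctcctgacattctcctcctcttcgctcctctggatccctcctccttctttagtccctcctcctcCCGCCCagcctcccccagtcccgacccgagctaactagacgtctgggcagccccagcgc
Errfi1 upstream start, chr4:150853546-150853845 (forward strand): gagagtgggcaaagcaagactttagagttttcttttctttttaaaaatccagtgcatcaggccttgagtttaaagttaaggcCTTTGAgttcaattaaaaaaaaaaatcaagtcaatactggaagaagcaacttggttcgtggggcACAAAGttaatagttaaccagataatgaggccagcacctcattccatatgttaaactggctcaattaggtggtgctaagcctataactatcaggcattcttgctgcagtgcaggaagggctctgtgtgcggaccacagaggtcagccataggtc
Errfi1 downstream start, chr4:150854820-150855119 (forward strand): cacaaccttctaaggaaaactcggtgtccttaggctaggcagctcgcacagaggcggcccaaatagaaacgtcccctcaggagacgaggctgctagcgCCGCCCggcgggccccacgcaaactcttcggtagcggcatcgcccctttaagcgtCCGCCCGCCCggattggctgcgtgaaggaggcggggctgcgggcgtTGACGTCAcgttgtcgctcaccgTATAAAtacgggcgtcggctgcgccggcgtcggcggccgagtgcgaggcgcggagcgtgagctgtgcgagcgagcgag

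The Tgfa window held 2 GC boxes and neither TCF/LEF core. The Egfr window held 1 GC box and neither TCF/LEF core. At the upstream start of Errfi1, CTTTGA lay 168 bases and the reverse of CTTTGT ended 99 bases before the start. At its downstream start, a cyclic AMP response element lay 51 bases and a TATA box core 28 bases before the start, with 3 GC boxes further upstream, of which 2 overlap. Of 32851 promoters of this length, 5257 held CTTTGA, 6147 (18.7%) CTTTGT, 7.81% the AP-1 site, 1.79% the cyclic AMP response element, 35.7% a GC box and 8.32% the TATA box core. The AP-1 site had no match in the 4 windows shown. These matches describe letters in the windows and no measured binding.

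Values are deposited probe set intensities and, for comparison, quantile-normalised log2(intensity + 5), called log2 signal here. Differences are mutant minus control on that scale, and the added 5 makes them smaller for dim probe sets. Levels are not compared between probe sets. The brightest probe set of the deleted gene Ctnnb1 (1420811_a_at) had a log2 signal of 12.43 and 12.56 in control against 12.02 and 11.85 in mutant crypts, a difference of -0.56 (SE 0.22). Its deposited intensities overlapped, at 4700 and 5997 against 5229 and 3449. The other kept Ctnnb1 probe set, 1450008_a_at, read 4.81 and 6.09 against 5.95 and 5.71, a difference of 0.38 (SE 0.50) with the opposite sign. Since the deleted exons are unknown here, these probe sets may lie outside them and are then no test of the labels. All 12 listed epithelial markers passed the filter, 7 higher and 5 lower in the mutants, with a median difference of 0.05. Their means were 10.86 and 11.04 in control against 10.99 and 11.02 in mutant crypts. Single markers moved in both directions, with differences of -0.63 for Cdh1 and 0.68 for Gpa33. Epcam, the epithelial adhesion gene, lay between 12.82 and 12.88 on the 4 arrays. Its difference was 0.02, and its other kept probe set had the opposite sign. The mean of 14 pancreatic secretory genes (of 20 listed) was 12.77 in mutant replicate 1 against 5.99, 6.02 and 5.59 in control 1, control 2 and mutant 2. The mean of 3 kept Brunner gland and gastric markers (of 7 listed) was 7.10 on the same array against 5.99, 5.70 and 4.73, where Tff2 alone was high, at 8.49 against at most 3.81, while Gkn3 read 6.04 there against 7.07 and 6.91 in the controls and Tff1 6.79 against 7.56 and 6.37. Absorptive enterocyte markers (16 of 18 kept) had means of 10.79 and 9.57 in control against 10.90 and 9.94 in mutant crypts. Fibroblast, muscle and endothelial markers (14 of 16 kept) had means of 7.04 and 7.66 against 7.51 and 7.70, and leukocyte markers (9 of 14 kept) 7.48 and 6.64 against 7.38 and 6.89. All 11 kept genes of dividing cells were lower in the mutants, with a median difference of -1.13. In these bulk samples fewer cells of a type and less RNA per cell cannot be told apart.

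No member passed the test. Over all 22519 kept probe sets, limma with Benjamini-Hochberg adjustment at 0.05 called 0 (0% called), and 1415 (6.28%) had an unadjusted p under 0.05. Of the 13 kept member probe sets, 0 were called and 2 had an unadjusted p under 0.05, namely Tgfa 1421943_at and Egfr 1435888_at. On the scale of log2 signal, both mutant values lay above both control values in 4 member probe sets (30.8%), against 17.3% of all kept probe sets. These 4 belonged to Tgfa, Errfi1, Erbb3 and Hbegf, and those of Errfi1 and Hbegf overlapped in the deposited intensities. In 3 member probe sets (23.1%), all of Egfr, both mutant values lay below both control values, against 18.9% of all kept probe sets. Of these, 1432647_at overlapped in the deposited intensities. An exact permutation test of 2 against 2 arrays cannot go below p = 0.333.

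**Figure D1:**
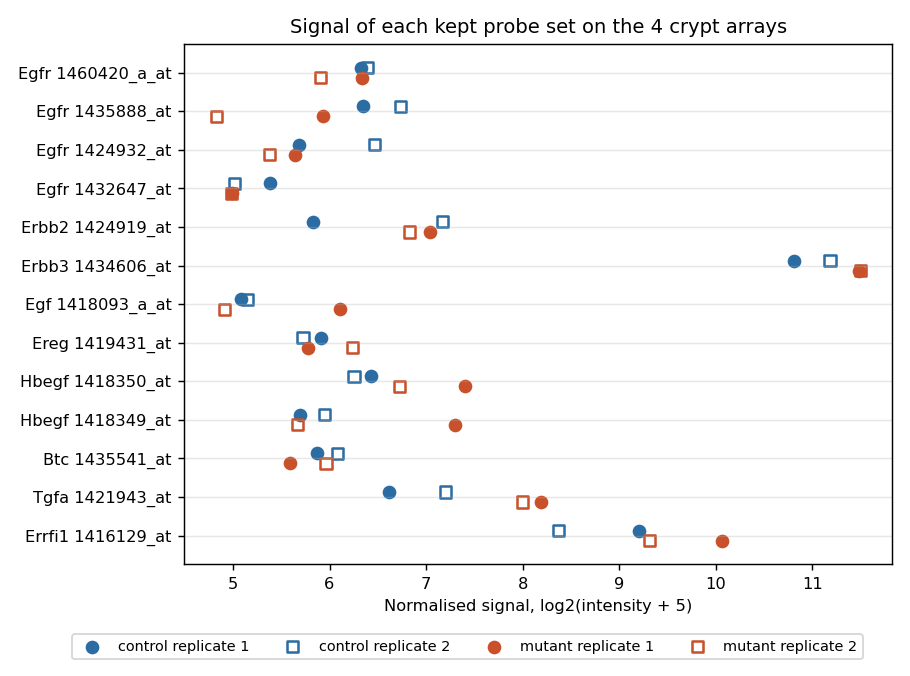
Normalised log2 signal (horizontal axis) of the 13 kept member probe sets (vertical axis) on each of the 4 arrays, with controls in blue, mutants in red, filled circles for replicate 1 and open squares for replicate 2. Mutant points lie to the right of both control points for Erbb3, Hbegf 1418350_at, Tgfa and Errfi1, and to the left for Egfr 1435888_at, 1424932_at and 1432647_at.

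**Figure D2:**
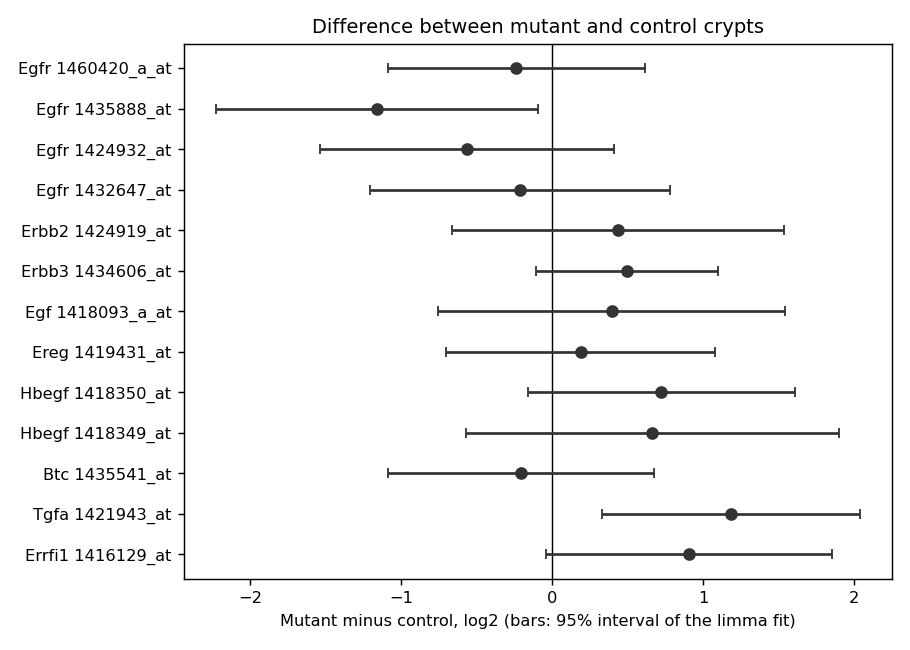
Difference between mutant and control (horizontal axis, log2) for the same 13 probe sets, with points for the limma estimate and bars for its 95% interval, n = 2 arrays a group. The intervals of Tgfa 1421943_at and Egfr 1435888_at exclude 0 before adjustment, and none passed after it.

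Egfr encodes the founding receptor of the family and had 7 probe sets, more than any other member. All 4 that were kept were lower in the mutants, by amounts that differed between probe sets. For 1435888_at the deposited intensities were 84.3 and 100.3 in control against 64.6 and 20.1 in mutant crypts. Its log2 signal was 6.34 and 6.74 in control against 5.94 and 4.83 in mutant crypts, so that the groups did not overlap and mutant replicate 2 lay lowest. The difference was -1.16 (SE 0.47, 95% interval -2.22 to -0.09), a 2.23-fold lower level, with an unadjusted p of 0.0364 and an adjusted p of 0.785 by limma. Without mutant replicate 2 the difference was -0.61, and without mutant replicate 1 it was -1.65.

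The brightest Egfr probe set, 1460420_a_at, gave a smaller value. Its deposited intensities were 83.5 and 76.2 in control against 89.6 and 44.1 in mutant crypts. On the log2 scale these were 6.33 and 6.39 against 6.34 and 5.91, which overlapped, since mutant replicate 1 matched the controls. The difference was -0.24 (SE 0.37, 95% interval -1.09 to 0.61; limma, adjusted p = 0.939). Probe set 1424932_at had deposited intensities of 55.3 and 81.2 against 50.02 and 30.3, and read 5.68 and 6.47 in control against 5.64 and 5.38 in mutant crypts, a difference of -0.56 (SE 0.43). Control replicate 2 stood above the other 3 arrays, and without it the difference was -0.17. Probe set 1432647_at read 5.38 and 5.01 against 4.99 and 4.99, a difference of -0.21 (SE 0.43), and -0.12 with a pseudocount of 32. The groups of this probe set overlapped in the deposited intensities, 45.5 and 23.3 against 28.3 and 22.7.

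The 3 dim Egfr probe sets lay below the filter and did not share a sign. Differences were 0.41 for 1451530_at, 1.26 for 1454313_at and -0.41 for 1457563_at, from deposited intensities of at most 22.8 on any array. They were not tested in the main analysis. A limma fit with no filter gave them unadjusted p-values of 0.48, 0.0518 and 0.304 in this order. The adjusted p-values of that limma fit were 0.951, 0.88 and 0.922. The 4 kept probe sets gave differences between -1.16 and -0.21.

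Erbb3, the receptor that couples the family to PI3 kinase, was higher in both mutants. Probe set 1434606_at had deposited intensities of 1629 and 2266 in control against 3699 and 2635 in mutant crypts. After normalisation the values were 10.81 and 11.18 in control against 11.49 and 11.50 in mutant crypts, so that the mutant arrays were alike and both lay above the controls. The difference was 0.49 (SE 0.26, 95% interval -0.11 to 1.10), or 1.41-fold, with an unadjusted p of 0.0961 and an adjusted p of 0.798 by limma. With median centring of the arrays it was 0.82 (SE 0.58). Leaving out single arrays gave 0.32 to 0.68. The second Erbb3 probe set, 1452482_at, lay below the filter with deposited intensities of at most 8.51, and its difference was 0.32.

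Erbb2, the ligandless partner receptor, showed no separation of the groups. Probe set 1424919_at had deposited intensities of 61.0 and 138.6 in control against 154.8 and 85.6 in mutant crypts. The log2 signal was 5.83 and 7.17 in control against 7.04 and 6.83 in mutant crypts. Both mutants lay between the 2 controls, and control replicate 1 was the lowest array. The difference was 0.44 (SE 0.48, 95% interval -0.66 to 1.53; limma, adjusted p = 0.905). Without control replicate 1 it was -0.24, and without control replicate 2 it was 1.08.

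Tgfa encodes TGF-alpha, an EGF receptor ligand, and its main probe set had the smallest p of the 13 kept member probe sets. The deposited intensities of 1421943_at were 99.9 and 141.6 in control against 365.2 and 199.5 in mutant crypts. Its log2 signal was 6.61 and 7.20 in control against 8.19 and 7.995 in mutant crypts, and both mutants lay above both controls. The difference was 1.19 (SE 0.37, 95% interval 0.33 to 2.04), or 2.27-fold, with an unadjusted p of 0.0123 and an adjusted p of 0.768 by limma. With single arrays left out the difference ranged from 0.92 to 1.47, and it was 1.07 without mutant replicate 1, on which pancreatic genes were high.

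The other probe sets of Tgfa disagreed with each other. Probe set 1450421_at read 4.25 and 4.34 in control against 4.91 and 4.97 in mutant crypts, a difference of 0.65 in the direction of the main probe set. Probe set 1421942_s_at read 4.10 and 4.80 in control against 3.05 and 3.29 in mutant crypts, a difference of -1.28 in the opposite direction. All 3 probe sets carry the same accession in the platform annotation. Both dimmer ones lay below the filter, with deposited intensities of at most 26.4, and were not tested in the main analysis. A limma fit with no filter gave 1421942_s_at an SE of 0.54, an unadjusted p of 0.0471 and an adjusted p of 0.88. For 1450421_at the same limma fit gave an SE of 0.54, an unadjusted p of 0.265 and an adjusted p of 0.917. The suffix s marks probes that can match more than 1 transcript.

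By the rule of smallest distance over the 4 arrays after removal of each mean, the genes most like Tgfa 1421943_at were Ypel2, Tor1a and H6pd. Their root mean square distances from it were 0.04, 0.06 and 0.06 on the log2 scale. Ypel2 read 8.25 and 8.87 in control against 9.80 and 9.72 in mutant crypts. With 4 arrays and 11395 genes to choose from, this is a description of the arrays.

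Hbegf encodes heparin-binding EGF, a ligand of EGFR and ERBB4, and was read by 2 kept probe sets. Probe set 1418350_at had deposited intensities of 88.9 and 68.3 in control against 203.1 and 79.4 in mutant crypts, which overlapped. After normalisation it read 6.43 and 6.25 against 7.41 and 6.72, with both mutants above both controls. The difference was 0.72 (SE 0.39, 95% interval -0.16 to 1.61; limma, adjusted p = 0.799). Without mutant replicate 1 it was 0.37.

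The second Hbegf probe set put the difference in 1 array. Probe set 1418349_at had deposited intensities of 55.6 and 53.2 in control against 188.7 and 37.0 in mutant crypts. Its log2 signal was 5.69 and 5.95 in control against 7.30 and 5.67 in mutant crypts, so that mutant replicate 2 lay below both controls. The difference was 0.66 (SE 0.54), -0.15 without mutant replicate 1 and 1.498 without mutant replicate 2.

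Egf itself followed the same array. Probe set 1418093_a_at had deposited intensities of 37.0 and 26.2 in control against 74.4 and 21.4 in mutant crypts. The log2 signal was 5.08 and 5.15 in control against 6.11 and 4.91 in mutant crypts, with mutant replicate 1 the highest and mutant replicate 2 the lowest of the 4 arrays. The difference was 0.39 (SE 0.50, 95% interval -0.75 to 1.54; limma, adjusted p = 0.918). It was -0.20 without mutant replicate 1 and 1.02 without mutant replicate 2. Mutant replicate 1 is the array on which the pancreatic genes averaged 12.77, and the acinar genes Cpa1, Cpb1 and Ctrb1 read 12.70, 12.67 and 13.10 there against at most 3.46 elsewhere. The part of these transcripts in the Egf and Hbegf values was not tested. Of the kept Paneth cell genes (6 of 12 listed), whose cells are known for EGF, 4 were lower and 2 higher, with a median difference of -0.19. Their means, 10.13 and 10.41 against 10.33 and 10.39, include Nupr1, which read 6.73 and 7.33 against 9.52 and 9.10.

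**Figure D3:**
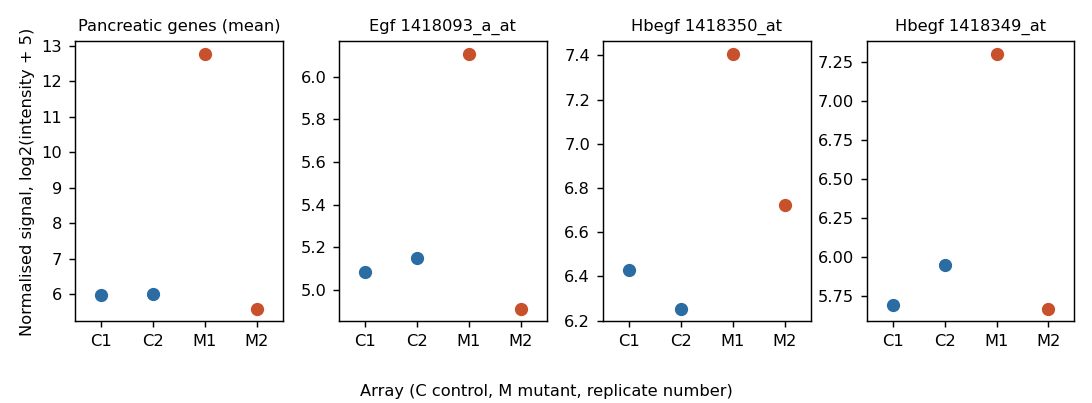
Log2 signal (vertical axes, each with its own range) on the 4 arrays (horizontal axes; C control, M mutant, with the replicate number) for the mean of 14 pancreatic genes, Egf and both Hbegf probe sets. Mutant replicate 1 is the highest point in all 4 panels, at 12.77, 6.11, 7.41 and 7.30 from left to right.

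Ereg and Btc encode epiregulin and betacellulin, ligands of EGFR and ERBB4. In the RefSeq annotation Epgn, Ereg, Areg and Btc lie next to each other in this order on chromosome 5. For Ereg, probe set 1419431_at had deposited intensities of 63.9 and 44.2 in control against 56.3 and 56.0 in mutant crypts. Its log2 signal was 5.91 and 5.73 against 5.77 and 6.24, and the groups overlapped. The difference was 0.19 (SE 0.39, 95% interval -0.70 to 1.08; limma, adjusted p = 0.956), -0.04 without mutant replicate 2 and 0.07 with no scaling between arrays.

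For Btc, probe set 1435541_at had deposited intensities of 62.6 and 59.4 in control against 48.0 and 46.1 in mutant crypts, both mutants lower. After normalisation it read 5.87 and 6.08 against 5.59 and 5.96, which overlapped. The difference was -0.20 (SE 0.39, 95% interval -1.08 to 0.68; limma, adjusted p = 0.951), and -0.34 with no scaling between arrays. The second Btc probe set, 1421161_at, lay below the filter, with a difference of 0.21. No difference in Ereg or Btc beyond the replicate spread was detectable, and the intervals reach 1.08 for Ereg and -1.08 for Btc on the log2 scale. Epgn, the neighbour of Ereg, lay below the filter.

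Errfi1, the feedback inhibitor of the receptors, was higher in both mutants after normalisation. Probe set 1416129_at had deposited intensities of 545.0 and 329.2 in control against 1394 and 518.8 in mutant crypts, where the groups overlapped. Its log2 signal was 9.20 and 8.37 in control against 10.06 and 9.32 in mutant crypts, with mutant replicate 2 just above control replicate 1. The difference was 0.90 (SE 0.41, 95% interval -0.04 to 1.85), or 1.87-fold, with an unadjusted p of 0.0591 and an adjusted p of 0.789 by limma. It was 0.49 without control replicate 2, 0.52 without mutant replicate 1, 1.26 without mutant replicate 2 and 1.34 without control replicate 1. In each group the array numbered 1 stood higher for Errfi1, as it did for the mean of the enterocyte markers (10.79 and 9.57, then 10.90 and 9.94). The 5' to 3' intensity ratio of the beta-actin control had the same order (0.149 and 0.0567, then 0.0945 and 0.0448). The part of enterocyte content or of transcript length in the Errfi1 value was not tested.

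A second Errfi1 probe set, 1419816_s_at, was also higher in both mutants and was dim. Its deposited intensities were 2.73 and 1.58 in control against 35.9 and 32.4 in mutant crypts. The log2 signal was 2.80 and 2.83 in control against 5.25 and 5.48 in mutant crypts, a difference of 2.55. Both mutants lay above both controls, and the control values are near the lowest the scale allows. The probe set lay below the filter on mean signal and was not tested in the main analysis. A limma fit with no filter gave an SE of 0.54, an unadjusted p of 0.00163 and an adjusted p of 0.88. The size depends on the pseudocount, from 3.62 with a pseudocount of 1 to 1.01 with 32. The suffix s of this probe set again marks probes that can match more than 1 transcript.

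**Figure D4:**
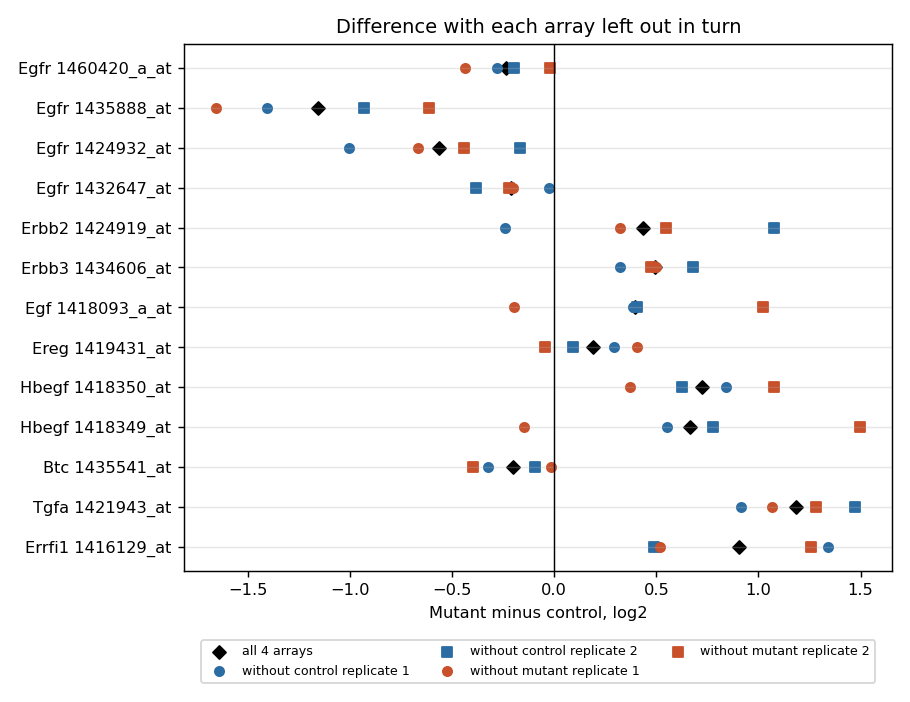
Difference between mutant and control (horizontal axis, log2) for the 13 kept member probe sets with all 4 arrays (black diamonds) and with each array left out in turn (blue for a control, red for a mutant; circles for replicate 1, squares for replicate 2). The sign turned for Erbb2, Egf, Ereg and Hbegf 1418349_at, and it held for the 9 other probe sets.

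The rest of the pathway was read from 5 lists with 88 genes, of which 72 had a kept probe set, each gene taken by its brightest. Of these 72 genes, 0 passed the test in either direction, as for all 11395 kept genes (limma; 0% called), and 2 had an unadjusted p under 0.05 against 6.94% of all kept genes. Mutant levels were higher for 52 and lower for 20, with a median difference of 0.21 against 0.01 over all kept genes. The groups did not overlap, with mutants higher, for 21 of 72 genes (29.2%), against 18.9% of all kept genes. They did not overlap, with mutants lower, for 4 (5.56%) against 19.2%. With mutant replicate 1 left out, a choice made after the data had been seen, 51 genes were higher and 21 lower. The single mutant array then lay outside the controls on the high side for 33 genes (45.8%, against 33.8% of all kept genes). It lay outside on the low side for 13 (18.1%, against 34.1%). Without control replicate 1 instead, the split was 44 to 28 and the median 0.10. In that setting 5321 of all kept genes were higher and 6074 lower, with a median of -0.04. Genes of a list share arrays and are not replicates, and these shares are descriptions.

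**Figure D5:**
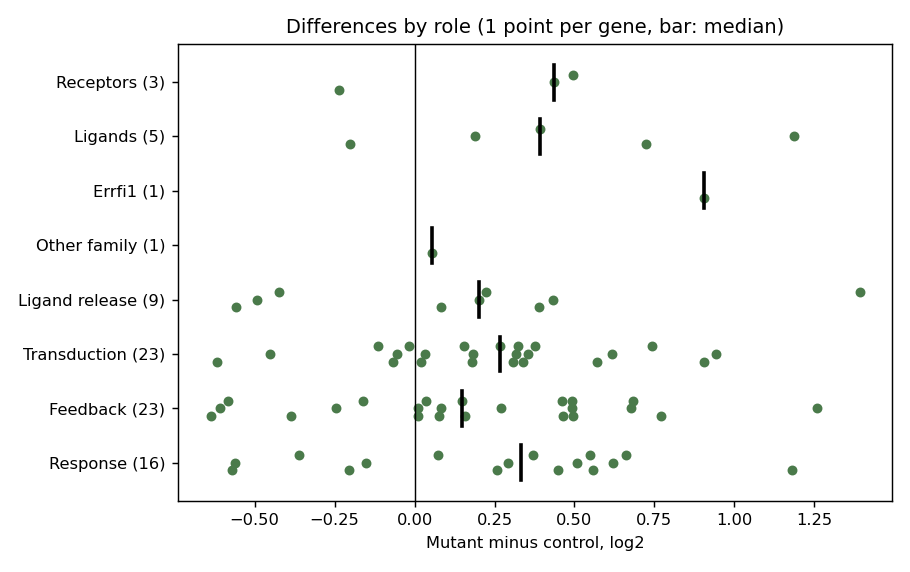
Difference between mutant and control (horizontal axis, log2) for each kept gene by role, with 1 point a gene at its brightest probe set, the number of genes in brackets and a bar at the median. With all 4 arrays the medians run from 0.06 for the other family member to 0.90 for Errfi1. The receptor median was -0.24 without control replicate 1, the feedback median then 0.0004, and the other family member stood at -0.58 without control replicate 2 and at -0.003 both as deposited and with a pseudocount of 32.

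Genes that transmit the receptor signal inside the cell gave both signs. Of 23 measured transducers (30 listed), 17 were higher and 6 lower, 0 passed the test and the median was 0.27 (0.10 without control replicate 1, 0.16 without mutant replicate 2 and 0.42 without control replicate 2). Stat3, a transcription factor phosphorylated downstream of the receptors, read 7.90 and 7.71 in control against 8.55 and 8.94 in mutant crypts, a difference of 0.94 (SE 0.35; limma, adjusted p = 0.772), and 1 of its 3 other kept probe sets had the opposite sign. The kinase gene Src read 8.60 and 8.44 against 9.67 and 9.18, a difference of 0.91 (SE 0.34; limma, adjusted p = 0.785). Map2k2, which encodes the MAP kinase kinase MEK2, read 9.98 and 9.91 against 10.52 and 10.52, a difference of 0.57 (SE 0.28). In these 3 genes, named by smallest p, both mutants lay above both controls. The same held for 7 of the 23 transducers (30.4%), against 18.9% of all kept genes.

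Feedback genes and genes of receptor degradation were split in the same numbers. Of 23 measured (24 listed), 17 were higher and 6 lower, 0 passed and the median was 0.15. Dusp6, a phosphatase of ERK that is itself induced by ERK, read 7.37 and 6.75 in control against 9.24 and 7.39 in mutant crypts, a difference of 1.26 (SE 0.59; limma, adjusted p = 0.789). Mutant replicate 2 lay next to control replicate 1, and mutant replicate 1 stood above the other 3 arrays. Lrig2 and Socs5 differed by 0.77 (SE 0.37) and 0.68 (SE 0.36), and the other kept probe set of Socs5 had the opposite sign. The genes named here were taken by smallest p. Both mutants lay above both controls for 8 genes of this list (34.8%), against 18.9% of all kept genes. Both lay below for 3 other genes of the list (13%), against 19.2% of all kept genes. Without control replicate 1 the list had 12 higher and 11 lower genes and a median of 0.0004, and the median was 0.07 without mutant replicate 1 and 0.40 without control replicate 2.

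Ligand release involves the ADAM proteases and the rhomboid-like iRhom proteins. Of 9 measured genes (10 listed), 6 were higher and 3 lower, 0 passed and the median was 0.20 (0.13 without control replicate 1). Rhbdf2, which encodes the iRhom2 partner of the protease ADAM17, read 4.53 and 6.65 in control against 6.89 and 7.07 in mutant crypts, a difference of 1.39 (SE 0.63; limma, adjusted p = 0.789). Control replicate 1 stood far below the other 3 arrays for this gene. Cnih1 and Adam10, a sheddase of EGF and betacellulin, differed by -0.56 (SE 0.39) and -0.42 (SE 0.33) with overlapping groups. Adam17 itself differed by 0.22 (SE 0.34), and its other kept probe set had the opposite sign.

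Transcriptional responses to the MAP kinase cascade were represented by 16 genes (18 listed), 11 higher and 5 lower, with 0 past the test and a median of 0.33. Fos, an immediate early gene, read 9.29 and 8.04 in control against 10.85 and 8.84 in mutant crypts, a difference of 1.18 (SE 0.66; limma, adjusted p = 0.807), and the groups overlapped. Fosl2 differed by 0.51 (SE 0.32), with its other kept probe set on the opposite side, and Myc, also a Wnt target, by -0.56 (SE 0.36). Without control replicate 1 the split was 8 higher and 8 lower with a median of 0.03, and the median was 0.17 without mutant replicate 1. Of the remaining family members, Nrg4 alone of 6 was kept, at a difference of 0.06 (SE 0.52), while Erbb4, Epgn, Nrg1, Nrg2 and Nrg3 lay below the filter.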

How the data were processed

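Transcript levels were measured on 4 single-colour arrays, 2 control and 2 mutant. The authors deposited linear intensities of probe sets, made with MAS5 per the submitters' processing notes, with version and scaling target not given in the sources used here. This method subtracts mismatch signal, which makes dim probe sets noisy, and amplification shortens transcripts from the 5' end: the beta-actin control's 5' to 3' intensity ratio was 0.149 and 0.0567 in control and 0.0945 and 0.0448 in mutant arrays. Trimmed means (2%) of the deposited intensities lay between 110.5 and 168.9, so log2(intensity + 5) values, 5 being their rounded 20th percentile, were quantile-normalised. The 64 control probe sets were left out. Probe sets at or above the median mean log2 signal (4.79) were kept, 22519 for 11395 genes; 34945 of 45037 had 1 gene symbol. Mutant and control were compared with limma 3.58.1 (R 4.3.3; lmFit, eBayes with intensity trend, 2 residual degrees of freedom, two-sided, Benjamini-Hochberg over all kept probe sets at 0.05), and SEs and 95% intervals are those of the fit. The number of arrays limits the precision. The step was tested on simulated data.

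Members and gene lists were chosen with earlier results of these data known. Every member is reported; of other pathway genes up to 3 a list are named by smallest p, and Adam17 was added after its value had been seen. Levels are from the brightest probe set of a gene. Alternatives covered scaling, pseudocount, filter, variance model, a replicate block and each array left out.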

Additional observations from a re-analysis of the deposited data

How the results depend on the processing

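The count of member probe sets called stayed at 0 and that of other pathway genes at 0 under all 14 alternatives run for both, and with the mean of all kept probe sets of a gene for the latter. Over all probe sets the number called was 0 in the main analysis, 2 with the values as deposited, 102 with median centring, 20 without mutant replicate 1, 90 without mutant replicate 2, 1 with the replicate block and 0 under each of the others. Under the 10 alternatives that kept all arrays, none of the 21 member differences changed sign. Median centring moved the median of all kept genes from 0.01 to 0.13; under it Ereg stood at 0.19, Tgfa 1421943_at at 1.27 and Erbb3 1434606_at at 0.82, against 0.49. With arrays left out, the differences ranged from -0.24 to 1.08 for Erbb2, -0.20 to 1.02 for Egf, -0.043 to 0.41 for Ereg and -0.15 to 1.498 for Hbegf 1418349_at, each with a change of sign; the cause was not tested. The sample numbers were tried as a replicate block, which called 0 of 13 members. Same-numbered arrays did not deviate together (correlation 0.03 over kept probe sets), and the labels state no pairing. Signal limits the dim probe sets: below the filter, pseudocounts of 1 and 32 moved Errfi1 1419816_s_at from 3.62 to 1.01 and Tgfa 1421942_s_at from -1.84 to -0.45.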
